A study of Schizosaccharomyces pombe with 24 samples.

Results

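The cytosolic ribosomal protein genes of the fission yeast Schizosaccharomyces pombe were taken as every nuclear gene whose standard name is rpl or rps followed by a digit. This gave 131 of the 6878 counted features, with 76 genes for the large subunit and 55 for the small subunit. Of the 131 genes, 111 belong to paralogue families and 20 are single. The data are small RNA libraries: RNA of 20 to 30 nt was cut from a gel and sequenced, and each value is the number of small RNA reads assigned to a transcript, so it measures short RNA from a gene and not the level of its intact mRNA.

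The groups are 4 strains at 6 times, with 1 library each and 24 libraries in all. The strains are ago1D (975 h+ ago1D::NatMX6), clr4D (975 h+ clr4D::NatMX6), dcr1D (975 h+ dcr1D::NatMX6) and wt (975 h+), so all 4 share the 975 h+ background, and the deletions replace Argonaute, the Clr4 histone H3 lysine methyltransferase and Dicer. Cells were grown in minimal medium (EMM) with adenine, histidine, leucine, lysine and uracil at 32 °C, washed and moved to the same medium without nitrogen (EMM -N), and sampled at 0 h (control) and at 1, 2, 4, 10 and 24 h of nitrogen starvation. Nothing in the labels tells if cultures were separate, and p-values here therefore reflect the spread between these libraries, which may be technical.

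As background, each ribosome carries a single copy of nearly every ribosomal protein, and growing yeast spends much of its transcription on these genes and on rRNA. Their transcription is held up by TOR signalling in rich conditions and falls quickly when nitrogen is lost, while cells of fission yeast divide without growth, then arrest and enter quiescence. Most of the genes have a close paralogue, and a read that fits both copies cannot be given to either.

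The libraries held 117245 to 2121235 gene counts, of which the ribosomal protein genes held 2729 to 73230 counts. Between 67.3% and 97.4% of reads were set aside by the counting program for low alignment quality. That share was 67.3%, 67.5% and 79.4% at 0 h in clr4D, dcr1D and wt, against 95.7%, 93.8% and 96.5% at 1 h. At 24 h it was 96.0%, 96.0% and 96.5% in the same order. In ago1D it was 93.9% at 0 h, 97.4% at 1 h, 81.0% at 2 h and 96.1% at 24 h. The part of this share in the changes over time below was not tested. Over the 4090 tested genes that are not ribosomal protein genes, each library was set against the mean profile of every time in the other strains, ago1D left out. Those labelled ago1D at 0, 1 and 2 h came closest to the 1 h, 2 h and 0 h profiles, with correlations across genes of 0.46, 0.28 and 0.70, against -0.17, 0.21 and -0.30 with their own times, so the gap is small for the 1 h library. The main results are given with and without these 3, called the doubtful ago1D libraries below. Of the other 21 all came closest to their own time except wt at 10 h (0.23 with 4 h and -0.03 with its own time) and dcr1D at 4 h (0.25 with 10 h and 0.18 with its own). Without the wt 10 h library, a setting added after the data were seen, 109 ribosomal protein genes differed across times, and 112, 1, 25, 98 and 15 were lower at 1, 2, 4, 10 and 24 h than at 0 h, against 1714 and 384, 18, 246, 620 and 601 of all 4345 genes, with 0 lower in each deletion strain. The ago1 transcript had 22 counts in all ago1D libraries together and 117 in wt. The clr4 transcript had 341 counts in the libraries labelled clr4D and 116 in wt. For dcr1 the sums were 265 in those labelled dcr1D and 165 in wt. These are raw sums, and the mean library held 427230 gene counts in clr4D, 698633 in dcr1D and 347066 in wt. The clr4 sum goes against its label. The dcr1 transcript was still counted in each library labelled dcr1D, at 23 to 79 counts. Strain names are therefore used as labels only. Summed levels of the 5 M cell markers (mfm1, mfm2, mfm3, mam1 and mam2), all of them detected, ran from 44.6 to 83.9 CPM in ago1D, 118 to 3426 CPM in clr4D, 110 to 2362 CPM in dcr1D and 51.5 to 101 CPM in wt, although every strain is labelled h+, the P mating type. The P cell markers map2 and map3 ran from 20.1 to 109 CPM in ago1D, 7.97 to 832 CPM in clr4D, 16.6 to 413 CPM in dcr1D and 8.43 to 107 CPM in wt. The part of mating type in the results below was not tested.

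In clr4D, dcr1D and wt the ribosomal protein genes held a much smaller share of the small RNA counts at 1 h after nitrogen removal than at 0 h, and by 24 h the strains stood apart. Each share is that of 1 library. As a share of the counts of protein-coding genes, the values at 0 h were 3.77%, 11.4%, 11.4% and 11.6% in ago1D, clr4D, dcr1D and wt. In the same order of strains they were 3.49%, 3.41%, 3.54% and 2.97% at 1 h, 9.36%, 3.11%, 3.15% and 2.40% at 2 h, 4.41%, 4.98%, 4.61% and 5.29% at 4 h, 3.72%, 3.70%, 2.96% and 6.66% at 10 h and 4.39%, 5.93%, 6.18% and 11.1% at 24 h. The exact Clopper-Pearson 95% interval around each share reached at most 0.166 percentage points to either side, and covers counting error only, since the reads carry no molecular identifiers. At 0 h the clr4D, dcr1D and wt libraries lay close together, and at 1 h and 2 h all 3 lay far below their own 0 h values. At 24 h the wt library stood close to its own 0 h value, while the clr4D and dcr1D libraries stood at about 6%. Among the ago1D libraries the one labelled 2 h was the highest and the one labelled 0 h was low. A share cannot tell less small RNA from these genes apart from more small RNA from other genes.

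**Figure D1:**
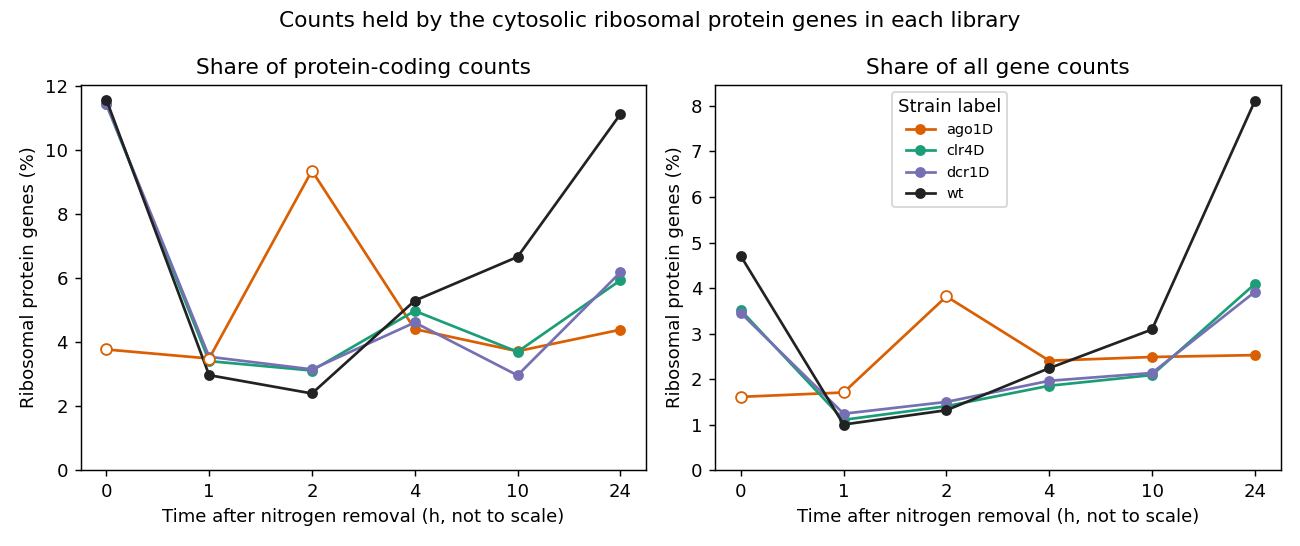
Share of small RNA counts held by the 131 ribosomal protein genes in each library, as percent of protein-coding counts (left) and of all gene counts (right), against time after nitrogen removal in h on an evenly spaced axis. Each point is 1 library, lines join libraries of a strain label, and open points mark the 3 doubtful ago1D libraries. The share drops between 0 h and 1 h in clr4D, dcr1D and wt, and the wt library stands above the other 24 h libraries on both scales.

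Over all gene counts, which include tRNA and other noncoding transcripts, the shares at 24 h were 2.53%, 4.09%, 3.91% and 8.11% in ago1D, clr4D, dcr1D and wt, against 1.61%, 3.51%, 3.45% and 4.70% at 0 h. On this scale the 24 h library lay above the library labelled 0 h in all 4 strains. For ago1D this rests on a doubtful library. The ago1D library that came closest to the 0 h profile, labelled 2 h, held 3.82%, above the ago1D library at 24 h. Protein-coding genes held 65.7% ± 6.67 (SD, n = 4) of gene counts at 24 h and 36.1% ± 6.54 at 0 h. The large subunit genes held 1.15 to 1.30 counts for every count of the small subunit genes across the 24 libraries.

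Of the 131 genes, 130 passed the filter on low counts, rpl1201 being the exception with 144 counts in all libraries together. Changes were fitted over all 4220 genes that passed, with terms for strain and time, by edgeR's quasi-likelihood test with Benjamini-Hochberg adjustment over all of them, and a gene was called at an adjusted p below 0.05. Levels are CPM after TMM scaling, which sets libraries equal over the bulk of genes. Across the 6 times 96 of 130 ribosomal protein genes were called, against 38.6% of all genes tested. Without the doubtful ago1D libraries it was 130 of 130, against 57.8% of the 4735 genes that then passed the filter. The count was 28 without wt, 0 without clr4D and 0 without dcr1D, fits for which the share of all genes is not given here.

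At 1 h after nitrogen removal, small RNA from 112 of the 130 genes was lower than at 0 h and none was higher, against 9.24% of all genes called lower. The median change was -1.62 on the log2 scale, against -0.00 for all genes tested, and the fitted change was negative for all 130 genes, by 0.62 to 2.97. Without the 3 doubtful ago1D libraries all 130 genes fell, with a median of -1.87, against 14.6% of all genes called lower. When every count was set only against the library total, 94 genes fell, against 5.66% of all genes, and 125 fell without those ago1D libraries, against 11.5%. Leaving out all libraries of wt, clr4D or dcr1D ended every call at 1 h. With the 3 ago1D libraries out as well, 130, 124 and 123 genes were still called without wt, clr4D and dcr1D in turn. These counts stand without the share of all genes called in the same fits, so they are not set against a background.

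**Figure D2:**
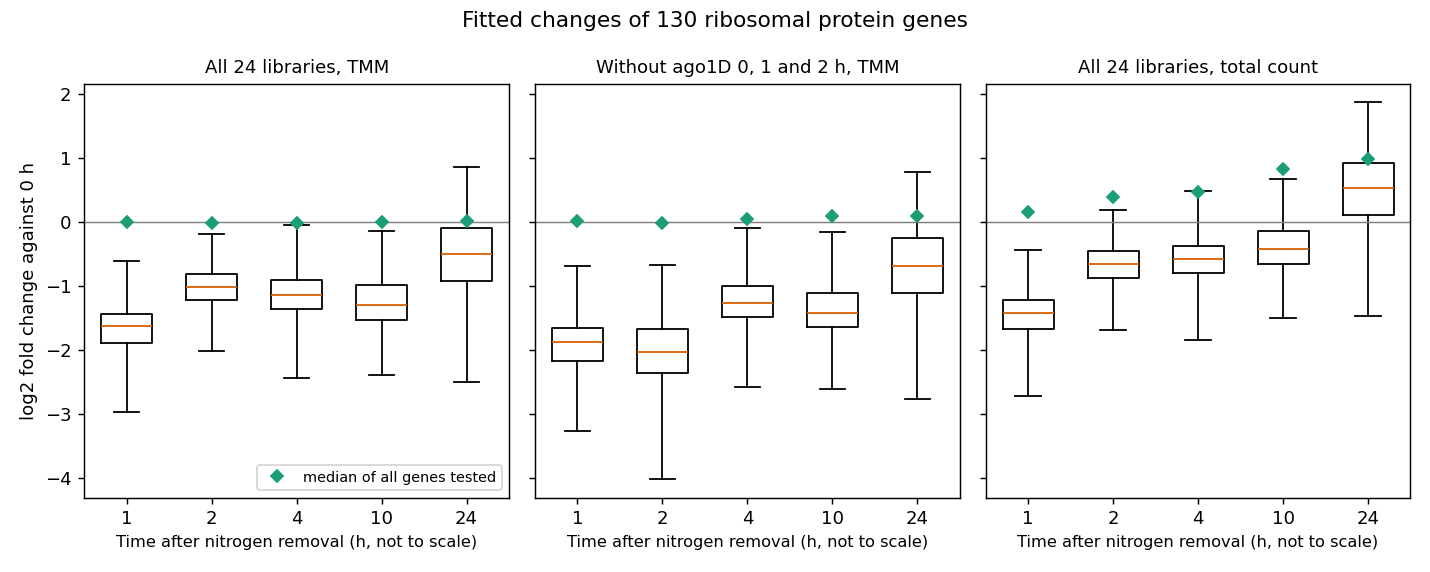
Fitted log2 fold change of the 130 tested ribosomal protein genes at each time against 0 h, with all 24 libraries and TMM scaling (left), without the doubtful ago1D libraries (middle) and with total-count scaling (right). Boxes span the quartiles with the median in orange, whiskers span all genes and diamonds mark the median of all genes tested. The median gene lies at -1.62, -1.87 and -1.42 at 1 h, and at -0.51, -0.69 and 0.53 at 24 h, where the median of all genes under total-count scaling is 0.98.

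The 6 genes of smallest adjusted p at 1 h were rpl301, rps2202, rps403, rpl3202, rpl4102 and rps402, all lower. The gene rpl301 encodes a copy of Rpl3, a large subunit protein that reaches towards the peptidyl transferase centre. At 1 h it had 81.1, 56.4, 82.8 and 28.8 CPM in ago1D, clr4D, dcr1D and wt, against 115, 305, 308 and 303 CPM at 0 h. Every 1 h library lay below every 0 h library, and the fitted change was -2.07 ± 0.40 (log2, SE, adjusted p = 0.0141 by edgeR). The gene rpl4102 encodes Rpl41, the smallest protein of the ribosome, which lies at the interface of the subunits. It had 102, 92.1, 99.4 and 110.3 CPM at 1 h, against 151, 799.5, 846 and 643 CPM at 0 h in the same order of strains. The low value at 0 h is that of the library labelled ago1D, and the change was -2.67 ± 0.56 with all libraries and -2.89 ± 0.29 without the 3 doubtful ones. The large subunit gene rpl3202 had 93.9, 98.0, 129 and 86.3 CPM at 1 h, against 136, 620.1, 675 and 494 CPM at 0 h.

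Among the small subunit genes, rps2202 had 34.2, 20.8, 23.2 and 38.4 CPM at 1 h, against 47.7, 118, 103 and 141 CPM at 0 h in ago1D, clr4D, dcr1D and wt. The paralogues rps402 and rps403, which both encode Rps4, had changes of -1.61 ± 0.36 and -1.90 ± 0.39. Both rps601 and rps602 encode Rps6, the ribosomal protein that is phosphorylated by S6 kinases downstream of TOR. The first of them had 201, 139.6, 166 and 149 CPM at 1 h, against 186, 764, 726 and 725 CPM at 0 h, and the second had 166, 74.2, 129 and 95.9 CPM at 1 h, against 163, 405, 494 and 425 CPM at 0 h. In clr4D, dcr1D and wt both copies were several-fold lower at 1 h, and their fitted changes were -1.88 ± 0.45 (adjusted p = 0.0166) and -1.74 ± 0.45 (adjusted p = 0.0196) by edgeR.

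Genes for proteins along the path of mRNA and tRNA gave changes of different sizes. At 1 h rps3, whose protein sits at the mRNA entry, changed by -1.63 ± 0.43 and was called. Its neighbour at the entry, rps2, changed by -1.08 ± 0.39 and did not pass with all libraries (adjusted p = 0.0621 by edgeR) but passed without the 3 ago1D libraries at -1.37 ± 0.32. The decoding centre protein Rps23 comes from rps23 and rps2302, of which only the first was called with all libraries, at -1.35 ± 0.39 (adjusted p = 0.0272 and 0.165 by edgeR). Without the doubtful ago1D libraries both passed, at -1.44 ± 0.30 and -1.25 ± 0.36.

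The proteins Rpl5 and Rpl11 enter the large subunit together with 5S rRNA. At 1 h rpl501 and rpl502 changed by -1.21 ± 0.34 and -1.75 ± 0.50, and rpl1101 by -1.20 ± 0.46, where only the last was not called with all libraries. Without the doubtful ago1D libraries rpl1101 and rpl1102 stood at -1.59 ± 0.31 and -2.12 ± 0.30, and all 4 passed. The genes rpl2501 and rpl2502, for a protein at the mouth of the exit tunnel, changed by -1.87 ± 0.47 and -1.88 ± 0.53. The second Rpl3 gene, rpl302, changed by -1.51 ± 0.43. The smallest fall of the 130 genes was that of rpl1001 at -0.62 ± 0.32, followed by rpl13 at -0.63 ± 0.34 and rpl14 at -0.73 ± 0.29, none past the threshold with all libraries. The deepest was that of rps1402 at -2.97 ± 0.67, a gene named after its values were seen.

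At 2 h the count of calls turned on the doubtful ago1D libraries and on the tool. With them 1 gene, rps2801, was called lower, against 0.474% of all genes, and the median change was -1.01. DESeq2 called 27 on the same libraries, against 129 of the 2502 genes to which it gave an adjusted p. Without the 3 ago1D libraries 127 of 130 genes were lower with a median of -2.04, against 15.5% of all genes. The median gene had 281, 95.7, 97.0 and 71.6 CPM at 2 h in ago1D, clr4D, dcr1D and wt, against 110.4, 325, 366 and 341 CPM at 0 h, so the ago1D libraries went the other way.

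At 4 h 26 genes were lower and at 10 h 90 genes, against 6.11% and 15.9% of all genes, with medians of -1.14 and -1.29. Without the 3 ago1D libraries the counts were 120 and 121, against 14% and 19.6% of all genes. Leaving out clr4D left 0 and 2 genes called at these times, leaving out dcr1D left 0 and 1, and leaving out wt left 0 and 67. No share of all genes is given for these leave-one-out fits. Under total-count scaling 10 and 18 genes were lower, against 1.82% and 3.29% of all genes, and 71 and 57 without the ago1D libraries, against 5.62% and 5.6%. DESeq2 with all libraries called 52 genes lower at 4 h and 85 at 10 h, against 318 of 3565 and 648 of 4220 genes given an adjusted p. At 10 h the median gene lay at -0.07 in ago1D, -1.67 in clr4D, -1.87 in dcr1D and -0.91 in wt from its own 0 h level, 1 library each. Under total-count scaling these were 0.61, -0.66, -0.67 and -0.56, so the gap between wt and the clr4D and dcr1D libraries seen with TMM was nearly gone.

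At 24 h fewer ribosomal protein genes differed from 0 h. The median gene lay at 0.17 in ago1D, -1.07 in clr4D, -0.94 in dcr1D and -0.06 in wt from its own 0 h level with TMM, 1 library each, and at 0.58, 0.23, 0.25 and 0.79 under total-count scaling. With all libraries 15 of 130 genes were lower and 0 higher, against 13.4% of all genes called lower and 15.3% called higher, so the share called lower was near the background. The median change was -0.51 and 107 of 130 changes were negative. At an unadjusted p below 0.05 there were 38 genes in either direction by edgeR, and DESeq2 called 16 lower and 1 higher. Without the 3 ago1D libraries 71 genes were lower and 1 higher, which was rpl13 in both, against 18% and 24.1% of all genes, with a median of -0.69, and all 15 genes were among the 71. The count of lower genes was 0 without clr4D, 3 without dcr1D, 56 without ago1D and 24 without the wt 24 h library alone. No share of all genes is given for these fits, for DESeq2 or at the unadjusted threshold, so their counts are not set against the background.

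The direction at 24 h turned with the scaling. Against library totals 40 genes were higher and 2 lower, against 55% and 2.63% of all genes, with a median of 0.53. Without the ago1D libraries these were 44 and 8, against 61.1% and 3.42%, with a median of 0.35. The median of all genes itself moved to 0.98 and 1.13 on this scale, so the median fitted change of the ribosomal protein genes lay below the median of all genes on either scale. The scalings differ by a single factor per library that moves all its genes alike, so the other scale is no separate support for this gap.

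The 6 genes of smallest adjusted p at 24 h were rpl4102, rps2801, rps2501, rpl4101, rps1202 and rpl26, all lower under TMM. For rpl4102 the levels were 130.4, 61.5, 131 and 142 CPM at 24 h, against 151, 799.5, 846 and 643 CPM at 0 h in ago1D, clr4D, dcr1D and wt. Each 24 h library lay below each 0 h library, and the change was -2.49 ± 0.56 (adjusted p = 0.00204 by edgeR). Its paralogue rpl4101 had 178, 155, 274 and 434 CPM at 24 h, against 266, 1107, 1073 and 1282 CPM at 0 h, a change of -1.89 ± 0.47 (adjusted p = 0.00441 by edgeR). In this gene the wt and dcr1D libraries at 24 h lay above the ago1D library at 0 h, and the annotated exons lie wholly inside a transcript counted on the other strand.

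Of the other 4, rps2501, rps2801 and rps1202 encode proteins of the small subunit's head and rpl26 a protein near the exit tunnel. The gene rps2501 had 68.6, 61.5, 94.0 and 167 CPM at 24 h, against 92.9, 582, 541 and 629 CPM at 0 h, and rps2801 had 165, 97.0, 131 and 174 CPM, against 158, 428, 485 and 418 CPM. Their changes were -2.24 ± 0.54 and -1.44 ± 0.35, with the wt library again highest at 24 h. The gene rps1202 changed by -1.64 ± 0.47 and rpl26 by -1.45 ± 0.45 (adjusted p = 0.0117 and 0.0182 by edgeR). Of the 6, rpl4102 and rps2501 were still called lower under total-count scaling, at -1.47 and -1.22.

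For the genes of known roles the 24 h changes were smaller than at 1 h. The Rps6 genes changed by -0.64 ± 0.43 and 0.14 ± 0.42 at 24 h, the Rpl3 genes rpl301 and rpl302 by -0.19 ± 0.37 and -0.21 ± 0.41, and rps2 and rps3 by 0.12 ± 0.39 and -0.53 ± 0.42, none past the threshold with all libraries. The values were -0.15 ± 0.37 for rps23 and 0.34 ± 0.46 for rps2302, 0.51 ± 0.33 for rpl501 and -0.33 ± 0.45 for rpl502, and 0.37 ± 0.43 for rpl1101 and -0.11 ± 0.44 for rpl1102. The exit tunnel genes rpl2501 and rpl2502 stood at -0.72 ± 0.45 and -0.69 ± 0.48, and passed only without the 3 ago1D libraries, as did rps601 and rps3. Under total-count scaling 40 of the 130 genes were called higher, against 55% of all genes, whose median lay at 0.98. Among the 40 were rpl301 and rpl1102, at 0.81 and 0.92, so the turn to above 0 is not particular to them. The highest change was that of rpl13, a large subunit gene, with 693, 708, 1038 and 1574 CPM at 24 h, against 409, 548, 717 and 539.8 CPM at 0 h. The wt library at 24 h was its highest, and the change was 0.86 ± 0.33 (adjusted p = 0.0575 by edgeR) with all libraries and 0.77 ± 0.28 (adjusted p = 0.0276) without the ago1D libraries. Next came rpl1001 and rpl501, neither past the threshold with all libraries, at 0.55 ± 0.31 and 0.51 ± 0.33.

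Genes with short transcripts stood lower at 24 h than genes with long ones. The 37 genes with exons of up to 500 bases had a median change of -0.90 and included 10 of the 15 called lower, against medians of -0.37 for the 52 genes of 501 to 750 bases, with 5 called, and -0.43 for the 41 longer genes, with none. Across the 130 genes the correlation of the change with exon length was 0.31 (Spearman) and 0.23 (Pearson), a description over genes of the same libraries. The correlation was -0.35 (Spearman) and -0.40 (Pearson) with the mean level per kilobase, and -0.29 and -0.24 with the percent of 22-base words of the gene that occur once in the genome. At 1 h the medians of the length classes were -1.63, -1.63 and -1.61, and the Spearman correlation was 0.03. Without the 3 ago1D libraries the 24 h medians were -1.07, -0.55 and -0.61, and under total-count scaling 0.11, 0.66 and 0.60. The 41 other protein-coding genes of up to 500 bases had a median change of 0.12, and over all 3851 other protein-coding genes the Spearman correlation with length was 0.06. The length classes were drawn after the values were seen, lengths are those of the ASM294v3 annotation, and the part of transcript length in the change was not tested.

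**Figure D3:**
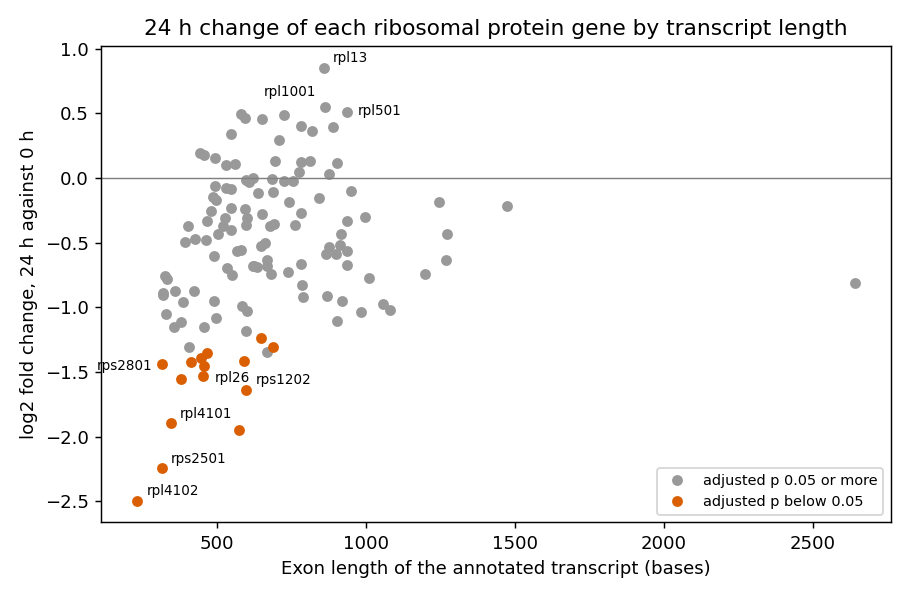
Fitted log2 fold change at 24 h against 0 h (TMM scaling, all libraries) of each of the 130 tested ribosomal protein genes against the exon length of its annotated transcript in bases. Orange points passed an adjusted p of 0.05, and the named genes are those given in the text. Of the 15 orange points 10 lie at up to 500 bases.

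Averaged over all times, none of the 130 genes differed between a deletion strain and wt. The counts were 0 lower in ago1D, in clr4D and in dcr1D, against 1.26%, 0.0711% and 0.687% of all genes called lower. The fitted differences were mostly negative: 114 of 130 in ago1D, 128 in clr4D and 110 in dcr1D, with medians of -0.29, -0.35 and -0.34, against -0.02 for all genes in each. At an unadjusted p below 0.05 there were 5, 3 and 7 genes by edgeR, and DESeq2 called 0 in each. No share of all genes is given at the unadjusted threshold, so those 5, 3 and 7 genes are not read as a difference. The 3 comparisons share the wt libraries. Without the 3 doubtful ago1D libraries 20 genes were lower in ago1D, 2 in clr4D (rpl401 and rpl2801) and 11 in dcr1D, against 2.51%, 0.591% and 3.23% of all genes. In that fit ago1D is present at 4, 10 and 24 h only, and with total-count scaling the counts were 1, 2 and 22. Leaving out the 2 h libraries alone gave 44 genes lower in ago1D. For this fit and the total-count one the share of all genes called is not given, so these counts are not set against a background.

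**Figure D4:**
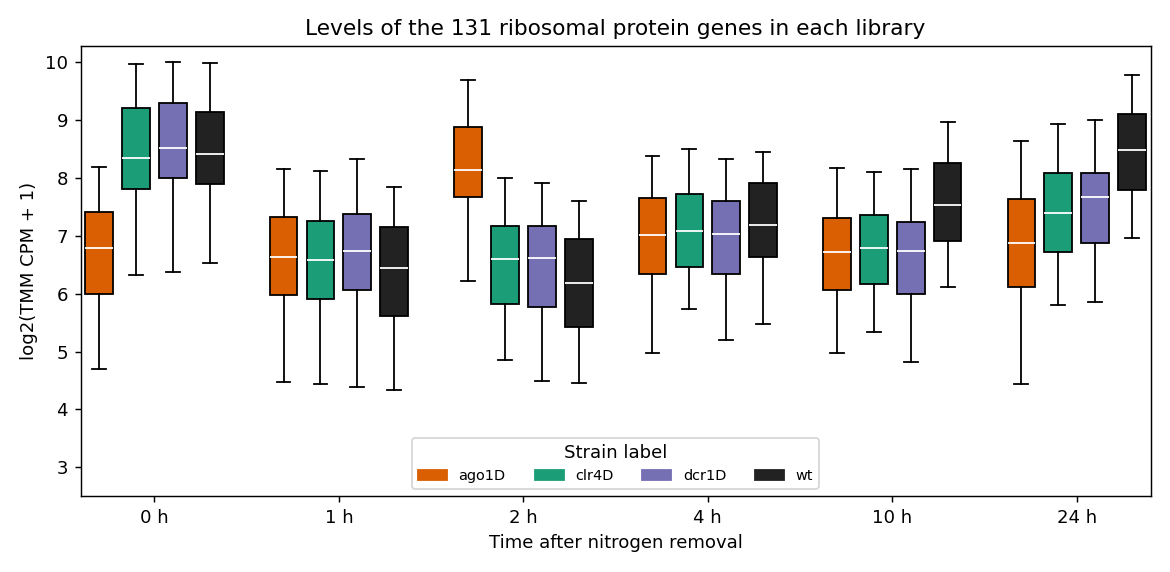
Levels of the 131 ribosomal protein genes in each library as log2(TMM CPM + 1), grouped by time after nitrogen removal, with the strains from left to right ago1D, clr4D, dcr1D and wt. Boxes span the quartiles with the median in white and whiskers run from the 5th to the 95th percentile of genes. The wt box is the lowest at 1 h and 2 h and the highest at 10 h and 24 h, and the ago1D box is low at 0 h and high at 2 h.

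The gene of smallest p against wt was rpl401 in all 3 comparisons, and its protein lines the exit tunnel. At 24 h it had 103, 168, 204 and 438 CPM in ago1D, clr4D, dcr1D and wt, and at 10 h 124, 112, 106 and 377 CPM. The wt library was highest at both times. Its differences were -0.97 ± 0.32 in ago1D, -0.77 ± 0.31 in clr4D and -0.81 ± 0.31 in dcr1D, with adjusted p of 0.0921, 0.374 and 0.161 by edgeR, and 0.0167, 0.0396 and 0.0161 without the doubtful libraries. The small subunit gene rps2202 differed by -0.78 ± 0.27 in ago1D and -0.69 ± 0.26 in dcr1D, and rps1902, for a head protein, by -0.80 ± 0.36 in dcr1D. The genes rpl2801 and rps3001 differed by -0.86 ± 0.38 and -0.65 ± 0.28 in clr4D, and rpl1603 by -0.94 ± 0.40 in ago1D, none past the threshold with all libraries.

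The late libraries of the deletion strains lay below those of wt. Late (10 h and 24 h) minus early (0 to 4 h), the median gene was at -0.46 in ago1D, -0.34 in clr4D and -0.33 in dcr1D, against 0.68 in wt. Under total-count scaling the sign of the deletion strains turned: 72 of 130 genes were positive in ago1D, 120 in clr4D and 116 in dcr1D, against 129 in wt. With TMM the late change was smaller than in wt for 129, 129 and 130 of the 130 genes in ago1D, clr4D and dcr1D, by medians of 1.12, 0.99 and 0.99. No gene passed the edgeR test of this difference with all libraries, against 0.0237% of all genes, none had an unadjusted p below 0.05 in the joint test over strains, and DESeq2 called none. The planned fit without the doubtful ago1D libraries called none either. In a fit with a term for each time and without those libraries, a fit added after the data were seen, 16 genes passed, against 2.15% of all genes. In it 31 genes had a lower late change in clr4D than in wt and 37 in dcr1D, against 1.08% and 1.82% of all genes. For ago1D the median difference from wt in late change was -0.94 in this fit. The only early ago1D library left there is that at 4 h, so no count of genes is given for it. With the term for each time but all libraries kept, no gene passed. With the wt 10 h library also left out, 29 genes passed, against 4.09% of all genes.

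Of the 5 genes of smallest p in the joint test with all libraries, 4 are described here, rps2, rpl13, rps2302 and rps1902. Only rps2 and rps2302 of the 5 passed in the added fit. For rps2 the levels at 24 h were 295, 524, 495 and 1239 CPM in ago1D, clr4D, dcr1D and wt, and at 10 h 278, 280.0, 218 and 594 CPM. The wt library lay above all deletion strains at both times. Late minus early it changed by -0.33 ± 0.55 in ago1D, -0.09 ± 0.54 in clr4D and -0.04 ± 0.54 in dcr1D, against 1.44 ± 0.52 in wt, with an adjusted p of 0.00621 by edgeR in the fit with a term for each time and without the doubtful ago1D libraries, and of 0.623 with them. The gene rps2302 had 75.5, 139, 188 and 395 CPM at 24 h in the same order and an adjusted p of 0.0326 without those libraries and 0.788 with them. For rpl13 and rps1902 it was 0.0549 and 0.0863 without them. With all libraries and the planned fit the adjusted p was 1.00 for all 5. The late libraries of a strain are 2, the wt library at 24 h also had the largest protein-coding share of gene counts, 72.9%, and M cell markers were high in clr4D and dcr1D. The part of these in the difference was not tested.

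Per kilobase of exon, with TMM scaling, the median gene had a mean level of 288 CPM per kb over the 24 libraries. The highest means were those of rps2502 at 1259 ± 635, rpl4101 at 1105 ± 963, rps13 at 1044 ± 865, rpl8 at 966 ± 645 and rps1702 at 916 ± 608 CPM per kb (SD over 24 libraries). The spread within each, which includes the change over time, is larger than the gaps between them. Differences between neighbours in this order were not tested. The same 5 genes led under total-count scaling. The lowest were rpl1603 at 10.1 ± 7.18, rpl1201 at 21.5 ± 19.7, rpl1002 at 31.3 ± 23.8, rpl3002 at 36.5 ± 24.4 and rpl3402 at 48.5 ± 28.4 CPM per kb, and their order too was the same under total-count scaling. For rpl1603 the annotated exons run to 2640 bases, the longest of the 131 genes. Only 14.2% of the 22-base words of rpl1201 and 40.1% of those of rpl1002 occur once in the annotated genome. Across the 131 genes the Spearman correlation of level with the percent of such words was 0.49 and with exon length -0.33, as descriptions over genes. The 23 genes with at least 90% of their exons inside a transcript of the other strand had a median of 274 CPM per kb, and the other 108 had 289, and the labels do not say how strand was set in counting.

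Paralogues were compared as the log2 ratio of counts in the same library, which needs no scaling between libraries. Of 60 pairs with coding sequences at least 65% identical, 59 had a mean of at least 10 counts in both genes and were analysed, and rpl1201 with rpl1202, at 99.6% identity, was not. In 24 of the 59 pairs the same gene was the higher one in all 24 libraries. The most unequal pairs were rpl3001 over rpl3002 with a mean log2 ratio of 3.35 ± 0.86, rpl1602 over rpl1603 with 3.32 ± 0.56, rpl1001 over rpl1002 with 3.21 ± 0.76 and rpl1601 over rpl1603 with 2.88 ± 0.63 (SD, 24 libraries). Rpl30 is known in budding yeast for regulating the splicing of its own transcript, and Rpl10 there joins the large subunit late in its maturation. For rpl1001 and rpl1002, with 97.9% identity, reads shared by both cannot be told apart.

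**Figure D5:**
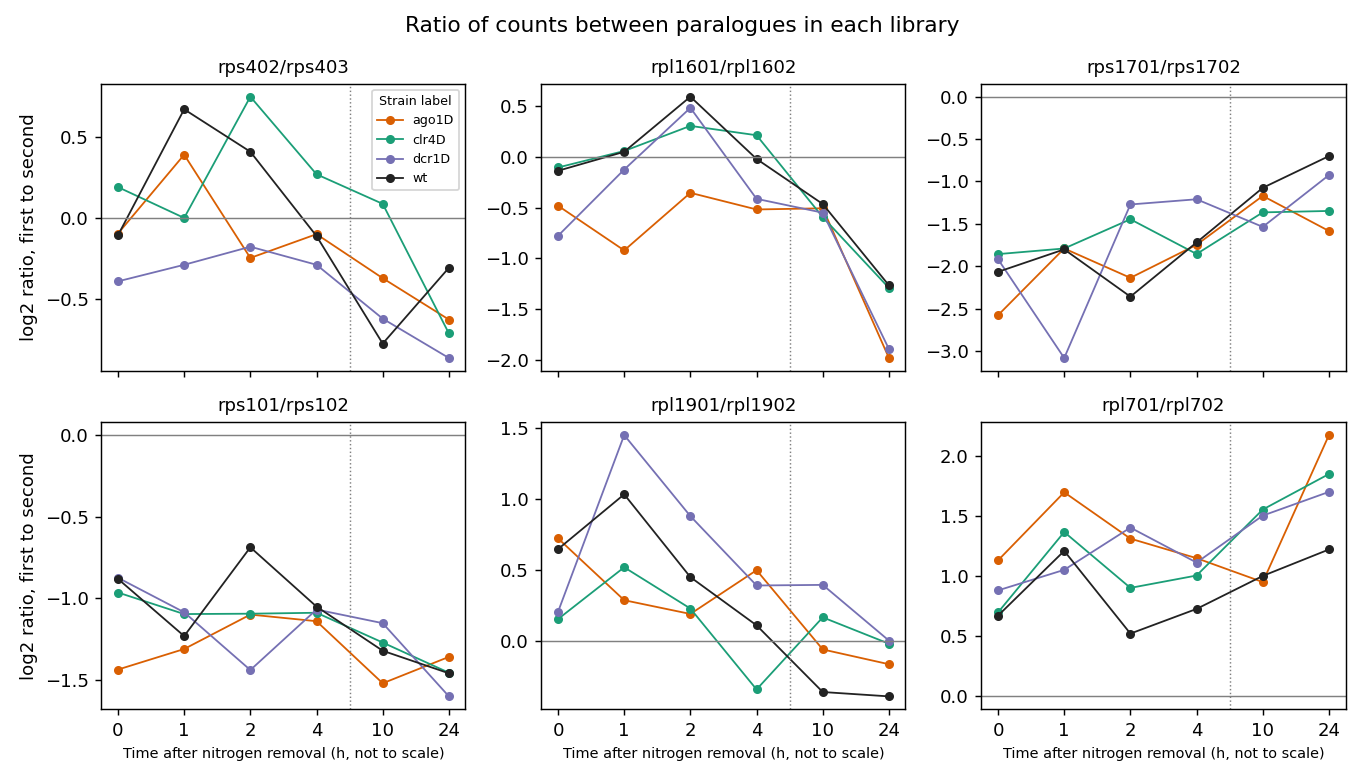
The log2 ratio of counts of the first to the second paralogue (0.5 added to each) in each library, for the 6 pairs whose late minus early difference passed an adjusted p of 0.05, against time after nitrogen removal in h on an evenly spaced axis. Each point is 1 library, colours are strain labels and the dotted line divides early from late times. The ratio moves the same way in all 4 strains in each pair.

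The ratio changed between late and early times in 6 of the 59 pairs by an exact within-strain permutation test, two-sided, over 50625 assignments with Benjamini-Hochberg adjustment over the pairs. It fell for rps402 over rps403, for rpl1601 over rpl1602, for rps101 over rps102 and for rpl1901 over rpl1902, and rose for rps1701 over rps1702 and for rpl701 over rpl702. Each moved the same way in 4 of 4 strains, as did 24 of all 59 pairs. The Rps4 pair had ratios of -0.10, 0.39, -0.25, -0.10, -0.37 and -0.63 in ago1D at 0, 1, 2, 4, 10 and 24 h. In the same order they were 0.19, 0.00, 0.75, 0.27, 0.09 and -0.71 in clr4D, -0.39, -0.29, -0.18, -0.29, -0.62 and -0.87 in dcr1D and -0.11, 0.67, 0.41, -0.11, -0.78 and -0.31 in wt. The late mean was -0.52 and the early mean 0.05, a difference of -0.58. Its p of 4.0e-05 was the smallest of the 59 pairs, with adjusted p = 0.00233 by the exact test.

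The pair rpl1601 and rpl1602 had the largest shift. Its ratios were -0.48, -0.92, -0.35, -0.52, -0.51 and -1.98 in ago1D, -0.10, 0.06, 0.31, 0.21, -0.59 and -1.29 in clr4D, -0.78, -0.12, 0.49, -0.41, -0.55 and -1.89 in dcr1D and -0.14, 0.05, 0.60, -0.02, -0.46 and -1.27 in wt at the same times. All 4 strains had their lowest ratio at 24 h. The late mean was -1.07 and the early mean -0.13, a difference of -0.94 (adjusted p = 0.00816, exact). The genes encode a large subunit protein, and rpl1601 was itself among the 15 genes called lower at 24 h. The small subunit pairs rps1701 over rps1702 and rps101 over rps102 differed by 0.70 and -0.30, both with adjusted p = 0.0184, and rpl1901 over rpl1902 and rpl701 over rpl702 by -0.52 and 0.44, both with adjusted p = 0.0458 by the exact test. Without the 3 doubtful ago1D libraries 3 pairs passed, rps402 over rps403, rpl1601 over rpl1602 and rps101 over rps102, and without clr4D only the first did. An exchange of time labels among those 3 libraries would not change this test, since all 3 count as early. Leaving them out keeps only the 4 h library as early in ago1D, so fewer assignments are possible.

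Genes that work with the ribosomal proteins were counted as whole lists. Over all 4220 genes tested 390 fell and 251 rose at 1 h, and 566 were lower and 644 higher at 24 h. The acidic stalk proteins, which bind the elongation factors, are encoded by rpp genes. All 7 fell at 1 h, between -1.14 for rpp0 and -2.87 for rpp203 on the log2 scale, and none passed at 24 h. The 4 ubiquitin fusion genes ubi1, ubi2, ubi3 and ubi5 carry a ribosomal protein tail, though their names fall outside the naming rule. All 4 fell at 1 h, and ubi1 and ubi5 were also lower at 24 h, by 1.80 and 1.39. Of 8 elongation factor genes 2 fell at 1 h, tef101 with a change of -1.42 and tif51 with -0.96, and none passed at 24 h. Of 23 tested ribosome biogenesis genes 9 fell and none rose at 1 h, among them dbp2, an RNA helicase, by 2.12 and nhp2, a protein of the pseudouridylation particles, by 1.81. At 24 h sdo1, rli1, nop58 and nop56 were lower, sdo1 by 1.56 and nop56 by 0.87, and nog2, a GTPase of large subunit assembly, was 1.87 higher. Of 11 tested genes for transcription of ribosomal protein genes and rDNA, 4 subunits of RNA polymerase I (nuc1, rpa2, rpa34 and rpa49) fell at 1 h, nuc1 by 1.53 and rpa49 by 1.35, and at 24 h nuc1 and rpa2 were still lower and fhl1, a forkhead factor tied to ribosomal protein genes in yeasts, was 1.23 higher.

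Mitochondrial ribosomal proteins and the TOR pathway were counted in the same way. Of 22 tested mitochondrial ribosomal protein genes, 39 in all, mrpl35 rose by 0.81 and none fell at 1 h, and at 24 h mrpl9 rose by 2.21 and 6 fell, with medians of -0.19 and -0.35. Of 16 TOR pathway and S6 kinase genes 4 rose at 1 h: tsc1 and tsc2, whose proteins inhibit TOR complex 1, by 1.02 and 0.71, and mip1 and tco89, both parts of that complex, by 0.93 and 0.99. At 24 h 4 were higher, the kinases gad8, sck2 and sck1 by 1.62, 1.40 and 0.70 and tsc1 by 0.96, and tor2, the kinase of TOR complex 1, was 0.62 lower. Without the 3 ago1D libraries 7 of 7 stalk, 4 of 4 ubiquitin and 7 of 8 elongation factor genes were lower at 1 h. For biogenesis, transcription and mitochondrial genes it was 18 of 23, 5 of 12 and 0 of 26, against 689 of all 4735 genes. In the transcription list 2 were higher, for which no share of all genes is given. Under total-count scaling 6 stalk, 4 ubiquitin, 1 elongation factor, 6 biogenesis, 1 of 11 transcription and 0 mitochondrial genes were lower at 1 h. Over all 4220 genes 239 were lower on that scale, and no TOR pathway gene passed at 1 h. At 24 h without the 3 ago1D libraries 3 stalk, 4 ubiquitin, 3 elongation factor, 9 biogenesis, 3 transcription and 6 mitochondrial genes were lower, against 854 of all 4735 genes. Under total-count scaling no gene of these lists was lower at 24 h, and 1 of 7 stalk, 0 of 4 ubiquitin, 4 of 8 elongation factor, 8 of 23 biogenesis, 4 of 11 transcription, 7 of 22 mitochondrial and 11 of 16 TOR pathway genes were higher, against 2322 of all 4220 genes.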

How the data were processed

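Small RNA counts per transcript were used as deposited: per the submitters' processing notes, the authors used cutadapt, Bowtie2 2.1.0, HTSeq 0.6.1 and build ASM294v2, and the labels' protocols give the 20 to 30 nt size selection. No source used here states the strand setting. Each deposited file holds raw whole-number counts for 6878 features, and 5 summary lines, which were left out (0.459% to 7.08% of reads without a feature, 0.0476% to 0.957% ambiguous). Groups came from sample titles, 1 library each.

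The members and lists were chosen with earlier results of these data known. The RefSeq annotation of ASM294v3 gave names, exon lengths, paralogue identity and 22-base words (97.5% of features matched). No coordinates or sequences are given, since its build differs. edgeR 4.0.16 in R 4.3.3 was run with a minimum count of 10, TMM, strain and time as terms, and an interaction of strain with late (10 h and later). With 1 library per strain and time, strains serve as replicates in time contrasts and times in strain contrasts. Paralogue ratios (0.5 added) were tested with scipy 1.17.1. Alternatives were total-count scaling, library size of protein-coding genes, no filter, DESeq2 1.42.0, leave-one-out and fits without the doubtful ago1D libraries. Scripts were tested on simulated data. Genes were named by rule: per contrast and direction, the 6 lowest adjusted p past the threshold, or 3 where none passed, 5 in the interaction, the 5 highest and lowest levels, 6 pairs by p and 4 by ratio, and a panel by role. Some of the genes this rule names are not reported here.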

Additional observations from a re-analysis of the deposited data

Results flagged for a closer look

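The share of protein-coding counts held by the ribosomal protein genes at 2 h minus 0 h was 5.58 percentage points in the libraries labelled ago1D, and -8.32 in clr4D, -8.28 in dcr1D and -9.18 in wt. It stood out because the ago1D value goes the opposite way, and the difference was not tested, with 1 library per strain and time. The shares behind it were 9.36% at 2 h and 3.77% at 0 h in ago1D, against 2.40% and 11.6% in wt. These are libraries whose other genes also go against their time labels.

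The late minus early change differed between strains for 16 ribosomal protein genes in the fit with a term for each time and without the doubtful ago1D libraries, against 2.15% of all genes. It stood out through the edgeR test of the difference itself, and 0 genes passed when those libraries were kept. The fit was added after the data were seen, and the planned fit without the same libraries called none.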

How the results depend on the processing

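The numbers of genes called here are of ribosomal protein genes only, without the share of all genes, and describe how they move with the settings. With total-count scaling 40 genes were higher and 2 lower at 24 h, and without the doubtful ago1D libraries as well 44 were higher and 8 lower. DESeq2 called 1 gene higher at 24 h, and TMM without the doubtful ago1D libraries 1 higher and 71 lower. With no filter on low counts 25 were lower, without the wt 24 h library 24, and without the doubtful ago1D libraries plus wt, clr4D or dcr1D in turn 100, 39 and 46. Leaving out 1 strain at a time gave 0 to 130 genes differing across times, 0 to 130 lower at 1 h, 0 to 56 lower and 0 to 1 higher at 24 h, and 1 to 5 paralogue pairs. Leaving out 1 time gave 0 to 44 genes lower in ago1D. Without the doubtful ago1D libraries 20, 2 and 11 genes were lower in ago1D, clr4D and dcr1D than in wt, and 1, 2 and 22 with total-count scaling too. The term for each time gave 16 genes with a late difference between strains without those libraries, 29 with wt 10 h left out too and 0 with all libraries, and 3 paralogue pairs passed without the doubtful libraries. The mean share over the 24 libraries was 2.64% of gene counts and 5.57% of protein-coding counts.

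For the named genes and pairs, 648 of 831 alternative values kept direction and side of the threshold and 8 reversed. At 24 h under total-count scaling the changes were 0.81 for rpl301, 0.86 for rps23 and 0.92 for rpl1102, and without the doubtful libraries as well 0.61, 0.77 and 0.77, with 0.74 for rpl302. Without those libraries and without wt, rps2 stood at -0.71. The cause of these changes was not tested, beyond the scaling moving the median of all genes to 0.98. No paired analysis was possible because each group of strain and time has 1 library, so groups share no series of replicate numbers. The strain and time terms already set times against each other within strains, and without the strain term 101 genes differed across times, against 96 with it. Depth limits the low genes: the library with fewest ribosomal protein counts, wt at 2 h, held 2729.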
